A study of Homo sapiens with 12 samples.

Results

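CDKN1A, GADD45A, GADD45B, GDF15, MDM2, BTG2, SESN1, SESN2 and TP53INP1, 9 genes linked to the tumour suppressor p53, were followed in human HEK cells whose TRPM7 transgene is turned on by tetracycline. The genes were picked by name, and every probe set that the platform annotation gives to one of them alone was taken. That gave 25 of the 54675 probe sets on the array, for 8 of the 9 genes. BTG2, an antiproliferative gene, had no probe set under its symbol alone and is not analysed here. Whether a probe set shared with another symbol reads it was not examined. After a filter on dim signal, which kept a probe set if its highest group mean was above 6.39 on the log2 scale, 18 of the 25 were tested, among 29553 in the whole table.

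HEK is an established embryonic kidney cell line, and TRPM7 is a membrane protein that joins an ion channel to a kinase. The 12 arrays fall into 4 groups of 3: the WT line with tetracycline, the WT line untreated, the mutant line with tetracycline and the mutant line untreated. The WT line carries the wild-type channel, and the mutant line a channel that lacks the kinase domain and that the series describes as nonfunctional, made as a control for the inducer. Tetracycline was given for 72 hours (the labels state 1 ug, with no volume), and both lines grew with 5 ug/mL blasticidin throughout. The labels do not say whether either line is a single clone, or whether the arrays of a group are separate cultures, so the p-values below cover the spread among these arrays and that spread may be technical. Values are log2 of MAS5 signals, a fluorescence intensity, and all fold changes come from 1 limma fit over the 12 arrays, given as log2 fold change ± its standard error (SE) with n = 3 arrays per group. A probe set was called at an adjusted p under 0.05 over all 29553 tested. In RNA of whole cultures, a change in the cells' makeup and a change in RNA per cell cannot be told apart.

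The TRPM7 signals did not check the labels. Of 3 tested TRPM7 probe sets, none rose in either line, and the brightest measured 7.62 ± 0.672 in WT tetracycline arrays and 8.47 ± 0.306 in WT untreated arrays (SD, n = 3 each), a log2 fold change of -0.85 (adjusted p = 0.0643). A dimmer one was called lower in the WT line, at 4.99 ± 1.53 with tetracycline and 7.0 ± 0.0874 untreated (adjusted p = 0.0411). Which stretch of the transcript those probe sets read, and whether the transgene holds it, was not examined, so the directions below rest on the labels. Of 9 HEK markers 8 were above the filter, and of 3 blood and immune markers with a probe set 0 were. The median SD of a probe set was 0.326 and 0.299 in the WT groups with and without tetracycline, against 0.19 and 0.174 in the corresponding mutant groups.

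The p53 protein is a transcription factor that is held at a low level by MDM2, a ubiquitin ligase whose own gene p53 switches on. When p53 is stabilised it raises genes that arrest the cell cycle, repair DNA and restrain growth. CDKN1A encodes p21, an inhibitor of cyclin-dependent kinases, GADD45A and GADD45B encode stress sensors that signal to kinases of the stress pathways, GDF15 encodes a secreted stress cytokine, and the sestrins SESN1 and SESN2 restrain the growth kinase mTORC1. TP53INP1 encodes a nuclear protein that favours p53 activity and autophagy. Some of these genes also answer to stress without p53: SESN2, GDF15 and GADD45A can be driven by ATF4, the transcription factor of the integrated stress response, and CDKN1A has several other inputs. MDM2 and SESN1 are usually taken as stricter p53 targets. HEK cells were made with adenoviral DNA, and an early adenoviral protein in them binds p53 and curbs its activity. The genes are therefore described below as stress-shared (CDKN1A, GADD45A, GDF15, SESN2), stricter (MDM2, SESN1) and other (GADD45B, TP53INP1).

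The sequence just before the transcription start is shown for 4 genes that rose in the WT line and for MDM2, which did not pass the test, so that the motifs in them can be compared. All are 250 bases upstream of a RefSeq start in build GRCh38.p14, read 5′ to 3′ on the plus strand. Capitals mark 4 motifs, each searched on both strands. The GC box was GGGCGG and the TATA box was TATAAA. The AP-1 site was TGANTCA, with N any base, and the p53 motif was a 20-base pair of adjoining half-sites with at most 2 mismatches. In CDKN1A the last GC boxes overlap by 1 base. Positions count back from the start, the base before it being -1. The windows are chr6:36678464-36678713 for CDKN1A, chr19:18385908-18386157 for GDF15, chr1:28259268-28259517 for SESN2, chr19:2475877-2476126 for GADD45B and chr12:68808767-68809016 for MDM2, where the start is the downstream of its promoters.
CDKN1A: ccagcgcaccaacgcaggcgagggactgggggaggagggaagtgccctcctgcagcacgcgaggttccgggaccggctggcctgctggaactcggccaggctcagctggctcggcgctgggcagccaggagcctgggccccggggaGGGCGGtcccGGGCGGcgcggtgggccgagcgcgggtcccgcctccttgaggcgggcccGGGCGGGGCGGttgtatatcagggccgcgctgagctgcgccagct
GDF15: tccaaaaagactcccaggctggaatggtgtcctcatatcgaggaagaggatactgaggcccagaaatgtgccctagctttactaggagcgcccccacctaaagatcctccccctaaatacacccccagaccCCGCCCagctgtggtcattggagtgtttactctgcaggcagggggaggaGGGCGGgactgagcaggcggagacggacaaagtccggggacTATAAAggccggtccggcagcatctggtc
SESN2: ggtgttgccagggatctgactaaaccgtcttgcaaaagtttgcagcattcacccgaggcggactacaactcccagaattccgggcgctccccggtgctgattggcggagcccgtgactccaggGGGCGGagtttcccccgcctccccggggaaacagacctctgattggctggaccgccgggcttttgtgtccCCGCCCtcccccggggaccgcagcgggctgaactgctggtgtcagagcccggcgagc
GADD45B: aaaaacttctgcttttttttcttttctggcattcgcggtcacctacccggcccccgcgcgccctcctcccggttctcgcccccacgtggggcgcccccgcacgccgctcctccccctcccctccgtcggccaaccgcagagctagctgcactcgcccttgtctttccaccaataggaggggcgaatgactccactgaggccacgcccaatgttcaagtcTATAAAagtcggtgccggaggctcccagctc
MDM2: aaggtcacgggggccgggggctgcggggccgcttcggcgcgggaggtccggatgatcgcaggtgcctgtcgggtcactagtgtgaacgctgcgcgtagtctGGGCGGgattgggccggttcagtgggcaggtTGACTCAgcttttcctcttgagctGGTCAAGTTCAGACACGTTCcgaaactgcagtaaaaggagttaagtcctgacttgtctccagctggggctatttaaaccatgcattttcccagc

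The CDKN1A window held 4 GC boxes, at -104, -94, -45 and -40, the GDF15 and SESN2 windows 2 each, and the MDM2 window 1. GC boxes were in 42.6% of all 35116 RefSeq windows of this length. A TATA box stood at -29 in GDF15 and at -31 in GADD45B, a motif found in 10.7% of windows. The MDM2 window alone among the 5 held a pair of p53 half-sites, with 2 mismatches, from -94 to -75, and such a pair was in 0.561% of windows (197). A further MDM2 window, which begins a few bases on, holds the same pair, while the 2 MDM2 windows of the upstream promoter and all 3 SESN1 windows hold none. The MDM2 window shown also held an AP-1 site at -118, found in 6.57% of windows. The C/EBP-ATF core TGATGNAA, present in 3.14% of windows, was in none of the 5. A match is only a match of letters, and the known p53 sites of CDKN1A lie outside a window this short. GADD45A, whose gene spans chr1:67685201-67688334, had no entry in the sequence table.

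The stress-shared genes rose in the WT line with tetracycline. All 5 of their tested probe sets passed, for 4 of 4 genes, where 16.9% of all tested probe sets were called, 7.83% higher and 9.11% lower. Counted with 1 probe set per gene, the one with the highest mean signal, 9.4% of 13099 genes were called higher and 8.55% lower. The median log2 fold change of the 4 genes was 1.48, beside 0.031 over all genes with a tested probe set.

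CDKN1A, the p21 gene (probe set 202284_s_at), measured 12.23, 12.41 and 12.77 in WT tetracycline arrays, against 10.65, 11.31 and 11.00 in WT untreated arrays. Every tetracycline array was above every untreated one. The log2 fold change was 1.48 ± 0.181, a 2.78-fold rise (adjusted p = 0.000266). The mutant line's CDKN1A measured 11.03, 11.30 and 11.43 with tetracycline, against 11.11, 11.20 and 11.37 untreated. Those groups overlapped, and the log2 fold change was 0.032 ± 0.181. The mutant arrays of both kinds lay inside or just above the range of the WT untreated arrays.

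GADD45A (203725_at) measured 12.40, 13.13 and 13.31 in WT tetracycline arrays, against 11.27, 11.91 and 11.20 in WT untreated arrays, again with no overlap. Its log2 fold change was 1.49 ± 0.220, a 2.80-fold rise (adjusted p = 0.000707). Mutant arrays measured 12.28, 12.18 and 11.91 with tetracycline and 11.77, 11.85 and 11.66 untreated. Here too the groups did not overlap, but the log2 fold change of 0.36 ± 0.220 had an unadjusted p of 0.121 in limma and an adjusted p of 1.0. Groups that do not overlap and lie higher with tetracycline were common: the WT line showed this in 13.7% of tested probe sets and in 10 of the 18 of members, and the mutant line in 6.86% and in 2 of 18, GADD45A and the dimmer SESN2 probe set. The 10 include GADD45B by 213560_at, which only its WT tetracycline mean put above the filter.

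GDF15, the stress cytokine (221577_x_at), measured 9.64, 10.68 and 10.75 in WT tetracycline arrays, against 8.28, 9.43 and 8.19 in WT untreated arrays. The gap between the groups was narrow, since the lowest tetracycline array and the highest untreated one were 9.64 and 9.43. The log2 fold change was 1.73 ± 0.323, a 3.31-fold rise (adjusted p = 0.00287), the highest value among the member genes and also the one with the widest error among their brightest probe sets. With the mutant channel GDF15 measured 8.78, 8.53 and 8.50 with tetracycline and 8.71, 8.50 and 8.33 untreated, a log2 fold change of 0.092 ± 0.323. A further 2 GDF15 probe sets, 229868_s_at and 221576_at, were too dim to be tested, with means over 12 arrays of 4.52 and 1.98 and overlapping groups in both lines.

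SESN2 was read by 2 probe sets, which gave similar changes. The brighter, 223195_s_at, measured 11.31, 10.66 and 11.08 in WT tetracycline arrays, against 10.04, 9.94 and 10.32 in WT untreated arrays, a log2 fold change of 0.91 ± 0.178 (1.88-fold, adjusted p = 0.00364). The other, 223196_s_at, measured 10.80, 9.79 and 10.46 against 9.23, 9.24 and 9.60, a log2 fold change of 0.99 ± 0.214 (adjusted p = 0.00634). Neither had overlapping groups, though replicate 2 with tetracycline stood closest to the untreated arrays in both. Mutant arrays of the brighter one measured 10.90, 10.91 and 10.54 with tetracycline and 10.63, 10.42 and 10.50 untreated, a log2 fold change of 0.27 ± 0.178 with an unadjusted limma p of 0.156.

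GADD45B, the GADD45A relative known as a target of NF-kB and of TGF-beta signals, also rose in the WT line. Its brightest probe set, 207574_s_at, measured 10.69, 10.20 and 10.64 in WT tetracycline arrays, against 9.35, 8.25 and 8.99 in WT untreated arrays, a log2 fold change of 1.65 ± 0.285 (3.13-fold, adjusted p = 0.00179). Mutant arrays measured 9.01, 8.94 and 8.45 with tetracycline and 9.18, 8.81 and 8.28 untreated, a log2 fold change of 0.04 ± 0.285. The mutant groups overlapped, and their arrays all lay within the range of the WT untreated arrays.

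The other GADD45B probe sets moved the same way in the WT line. 209305_s_at had a log2 fold change of 1.38 ± 0.287 (adjusted p = 0.0052) and 209304_x_at one of 1.38 ± 0.332 (adjusted p = 0.012). The dimmest, 213560_at, measured 7.92, 7.12 and 6.97 in WT tetracycline arrays and 6.05, 6.32 and 5.97 in WT untreated arrays. It did not pass, with a log2 fold change of 1.23 ± 0.590 (adjusted p = 0.17). Mutant arrays measured 6.47, 4.20 and 4.63 with tetracycline and 6.21, 7.29 and 5.60 untreated. Its log2 fold change there, -1.27 ± 0.590, was opposite in sign to the WT line, with an adjusted limma p of 1.0 and an unadjusted one of 0.0482.

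**Figure D1:**
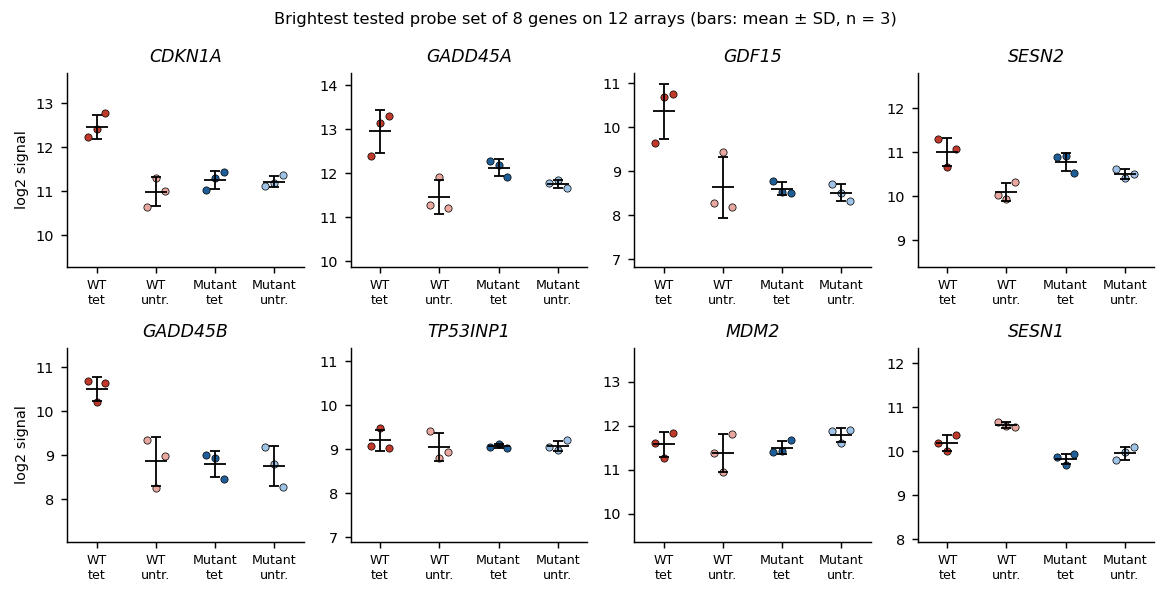
The log2 signal (vertical axis, every panel spanning the same range of log2 units) of the brightest tested probe set of each of 8 genes on 12 arrays, with points for arrays and bars for the mean ± SD of 3. In CDKN1A, GADD45A, GDF15, SESN2 and GADD45B the WT tetracycline points lie above the WT untreated points, in MDM2 and TP53INP1 they overlap, and in SESN1 they lie below.

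The stricter targets had no call in the WT line. Of their 8 tested probe sets, 7 of MDM2 and 1 of SESN1, 0 were called, where 7.83% of all tested were called higher. With so few probe sets, 0 calls lie near that share and do not show that the genes were level. An unadjusted limma p under 0.05 was found for 2 of the 8. With 1 probe set per gene it was 1 of 2 genes, beside 4304 of all 13099. The median log2 fold change of the 8 was -0.098. Of the MDM2 probe sets, 225160_x_at passed in 3 alternatives, given below. How the stricter genes differ from the stress-shared ones was described by these counts and medians and was not tested.

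MDM2, the ligase that degrades p53, had 10 probe sets on the array, on chr12:68808172-68850686, and they did not move together. The brightest, 229711_s_at, measured 11.61, 11.27 and 11.83 in WT tetracycline arrays, against 11.37, 10.94 and 11.81 in WT untreated arrays, with overlapping groups and a log2 fold change of 0.19 ± 0.198 (adjusted p = 0.538). That value turned to -0.047 with array weights and to -0.023 without replicate 2 of the WT untreated arrays. The same probe set in the mutant line measured 11.41, 11.42 and 11.68 with tetracycline and 11.87, 11.61 and 11.89 untreated, a log2 fold change of -0.29 ± 0.198.

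The second brightest MDM2 probe set, 225160_x_at, came close to the threshold. It measured 11.07, 11.17 and 10.87 in WT tetracycline arrays, against 10.81, 10.24 and 10.68 in WT untreated arrays, with no overlap and a log2 fold change of 0.46 ± 0.154 (adjusted p = 0.0542). Its adjusted p was 0.039 with a stricter filter, 0.0418 with array weights and 0.0309 without replicate 1 of the WT untreated arrays, but 0.217 when only the WT arrays were fitted. The order in the mutant line was opposite: 10.73, 10.82 and 10.89 with tetracycline lay below 11.00, 10.96 and 11.02 untreated (log2 fold change -0.18 ± 0.154, adjusted p = 1.0).

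The remaining MDM2 probe sets were dimmer and noisier. Their WT log2 fold changes were 0.74 ± 0.386 (205386_s_at), 0.41 ± 0.336 (217373_x_at), -0.39 ± 0.460 (244616_x_at), -0.52 ± 0.408 (217542_at) and -0.65 ± 0.401 (238733_at), with adjusted p between 0.208 and 0.600. Without replicate 1 of the WT tetracycline arrays 217542_at was called lower, at -1.10 (adjusted p = 0.0168). In that setting 8077 of all probe sets were called for the WT induction, against 5005 in the main fit. A further 3 MDM2 probe sets were too dim to be tested. Probe sets of 1 gene can read different transcripts, and which MDM2 transcript each reads was not examined.

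SESN1, the sestrin taken as the stricter p53 target (218346_s_at), lay lower with tetracycline. It measured 10.20, 10.01 and 10.38 in WT tetracycline arrays, against 10.67, 10.57 and 10.55 in WT untreated arrays, with no overlap. The log2 fold change of -0.40 ± 0.148 did not pass (adjusted p = 0.0775). Mutant arrays measured 9.88, 9.70 and 9.93 with tetracycline and 9.80, 9.99 and 10.10 untreated, a log2 fold change of -0.13 ± 0.148. SESN1 and SESN2 therefore had values of opposite sign in the WT line, of which only the SESN2 value passed, and the contrast between the 2 genes was not tested.

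TP53INP1 was near level. Its brightest probe set, 225912_at, measured 9.08, 9.48 and 9.03 in WT tetracycline arrays, against 9.42, 8.79 and 8.94 in WT untreated arrays, a log2 fold change of 0.15 ± 0.192 (adjusted p = 0.638). The mutant arrays measured 9.06, 9.12 and 9.03 with tetracycline and 9.04, 8.98 and 9.20 untreated. Its other 2 probe sets were too dim to be tested, and it lies on a chromosome whose sequence is not shown.

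In all, 8 of the 18 member probe sets rose in the WT line and 0 fell, covering 5 of 8 genes. The SE pools the noisier WT arrays with the mutant arrays. When only the WT arrays were fitted, 7 of the 18 passed, against 1223 of all probe sets. The adjusted p was then 0.0144 for CDKN1A, 0.0191 for GADD45A and for GADD45B, 0.0384 for GDF15 and 0.0449 for SESN2. Without the replicate 3 arrays of all 4 groups, which leaves 2 arrays per group, 3 of the 18 passed, against 541 of all probe sets. These were CDKN1A, at 1.34 (adjusted p = 0.0322), and GADD45B by 209304_x_at and 209305_s_at, while the adjusted p of GADD45A was 0.0575, of SESN2 0.0592, of GADD45B by its brightest probe set 0.051 and of GDF15 0.136.

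**Figure D2:**
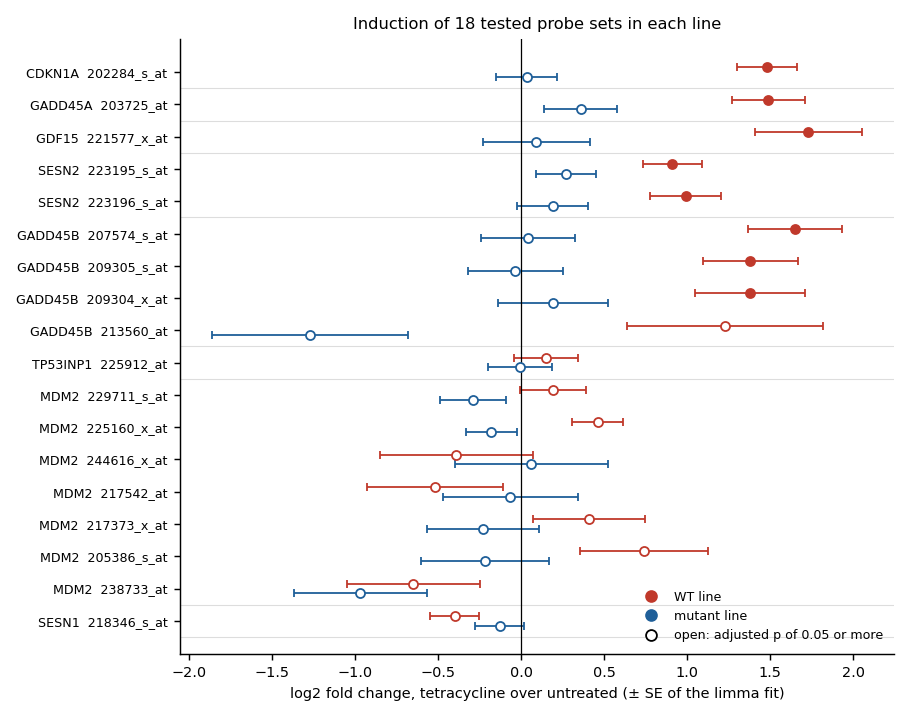
Log2 fold changes with tetracycline over untreated (horizontal axis, ± SE of the limma fit) of the 18 tested probe sets, in red for the WT line and in blue for the mutant line, filled where the adjusted p was under 0.05. The 8 filled points are all of the WT line and belong to CDKN1A, GADD45A, GDF15, SESN2 and GADD45B, while the MDM2 points lie on both sides of 0.

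The mutant line gives the response to tetracycline with the truncated channel. None of the 18 member probe sets was called there, nor was any of all 29553 (0.0%), although the unadjusted limma p was under 0.05 for 2 members and for 620 of all probe sets (2.1%). Those 2 members, MDM2 by 238733_at and GADD45B by 213560_at, were both lower with tetracycline. The median log2 fold change was 0.18 over the 4 stress-shared genes and -0.21 over the 2 stricter genes, beside 0.016 over all genes.

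The induction in the WT line minus that in the mutant line tests whether the lines responded differently. CDKN1A was the 1 member called, among 41 probe sets in all (0.139%), with a difference of 1.45 ± 0.256 on the log2 scale (adjusted p = 0.0485). The call was close to the threshold: it was lost in 14 of 21 alternative settings. In some of the 14, 0 of all probe sets were called for the difference. These were the fits without all replicate 3 arrays, without WT tetracycline replicate 3 or without any single mutant array. The CDKN1A difference ranged between 1.28 and 1.61 over all 21 and stayed above 0. The differences of GDF15 (1.63 ± 0.457, adjusted p = 0.132), GADD45B (1.61 ± 0.403, adjusted p = 0.103) and GADD45A (1.12 ± 0.312, adjusted p = 0.13) were of like size and did not pass.

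Those 3 genes passed with array weights, where their adjusted p was 0.0034, 0.0326 and 0.00346 in the order named. They also passed without replicate 1 of the WT tetracycline arrays. Calls over all probe sets rose as well, from 41 to 2493 with array weights and to 2702 without that array. The SESN2 difference was smaller, at 0.65 ± 0.252 (adjusted p = 0.258), and its second probe set gave 0.81 ± 0.302 (adjusted p = 0.24). Of the stricter genes, MDM2 gave 0.48 ± 0.281 by its brightest probe set and 0.64 ± 0.217 by 225160_x_at (adjusted p = 0.455 and 0.206), where 225160_x_at also passed with array weights (0.65, adjusted p = 0.0404), and SESN1 gave -0.27 ± 0.209 (adjusted p = 0.592). Of all 18, 10 had an unadjusted limma p under 0.05, and some of these read the same gene. With 1 probe set per gene it was 5 of 8, beside 1993 of all 13099 genes.

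The arrays of the WT tetracycline group did not order the genes alike. Relative to the mean of the WT untreated arrays, CDKN1A stood 1.24, 1.42 and 1.77 higher on replicates 1, 2 and 3, GADD45A 0.94, 1.67 and 1.85, and GDF15 1.01, 2.05 and 2.12. Replicate 1 was thus the lowest for these 3 genes. SESN2 stood 1.21, 0.56 and 0.98 higher and GADD45B 1.83, 1.34 and 1.78, with replicate 1 the highest and replicate 2 the lowest. The shifts of the mutant tetracycline arrays from their untreated mean ran between -0.31 and 0.52 over the same 5 genes.

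**Figure D3:**
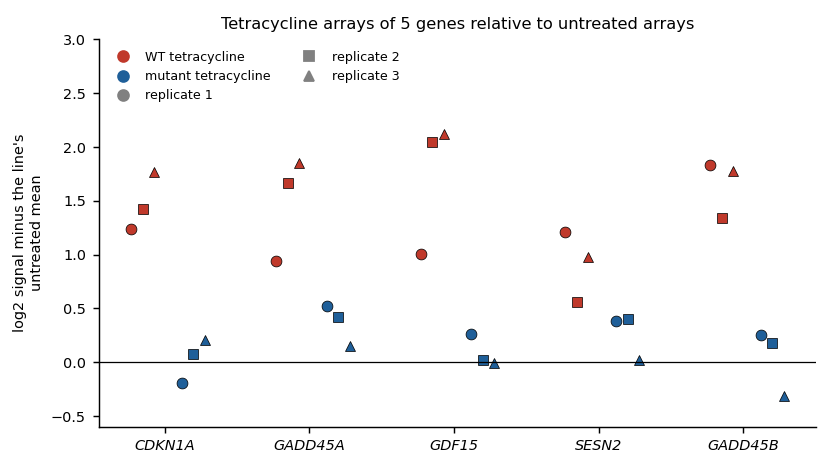
Log2 signal of each tetracycline array minus the mean of the untreated arrays of its line (vertical axis), for the brightest probe set of 5 genes, with WT arrays in red, mutant arrays in blue and a marker shape for each replicate number. The WT points lie between 0.56 and 2.12 and the mutant points between -0.31 and 0.52, and the circle of replicate 1 is the lowest WT point for CDKN1A, GADD45A and GDF15 but the highest for SESN2 and GADD45B.

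Over all 12 arrays, which share the contrast of the groups, CDKN1A, GADD45A and GDF15 followed each other closely, with a Pearson r of 0.893 between CDKN1A and GADD45A, 0.906 between CDKN1A and GDF15 and 0.911 between GADD45A and GDF15. CDKN1A had a lower r with GADD45B (0.743) and SESN2 (0.624), and one near 0 with MDM2 (0.084) and SESN1 (-0.0416). SESN2 and SESN1 had an r of -0.505. These are descriptions over the same arrays, with no test.

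The genes whose signal was most like that of a member over the 12 arrays were named by the highest Pearson r. For CDKN1A they were NFIL3 (0.978), LRP12 (0.972) and EIF4EBP1 (0.971), and for GADD45A RIT1 (0.973), GPRC5A (0.972) and ZNF473 (0.968). For GDF15 they were NUSAP1 (0.993), DUSP1 (0.982) and STX16 (0.977). DUSP1, a phosphatase that shuts down stress kinases, averaged 14.05 in WT tetracycline arrays, 12.33 in WT untreated arrays, 11.99 in mutant tetracycline arrays and 11.92 in mutant untreated arrays. For SESN2 they were CHAC1 (0.955), a glutathione-degrading enzyme of the integrated stress response, WDR45 (0.946) and ITGA5 (0.942). CHAC1 averaged 9.0 in WT tetracycline arrays and 6.95 in WT untreated arrays, and 8.78 in mutant tetracycline arrays and 7.60 in mutant untreated arrays. For MDM2 the nearest were KLC2 (0.888), CEACAM3 (0.874) and RND1 (0.873), with a lower r than for the other 4 genes.

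The lines were also compared with each other. Untreated, 2 member probe sets were called, where 12.9% of all tested were (4.19% higher and 8.7% lower in WT). SESN1 was higher in the WT untreated arrays than in the mutant untreated arrays, by 0.63 ± 0.148 (adjusted p = 0.0127). The dim MDM2 probe set 217373_x_at was lower in WT, at 7.04 ± 0.728 in WT untreated arrays against 8.20 ± 0.226 in mutant untreated arrays (SD, n = 3 each), a log2 fold change of -1.16 ± 0.336 (adjusted p = 0.0351). CDKN1A, at -0.23 ± 0.181, and GDF15, at 0.12 ± 0.323, did not pass, and neither did SESN2, at -0.41 ± 0.178 (adjusted p = 0.143). Without replicate 1 of the mutant untreated arrays 0 member probe sets were called, with an adjusted p of 0.0707 for SESN1. Without all replicate 3 arrays 0 were called either (0.0518). Over all probe sets 5.56% and 5.81% were called in these settings, below the 12.9% of the main fit.

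With tetracycline in both lines, 7 member probe sets were higher in WT and 0 lower, where 27.6% of all tested were called (10.2% higher and 17.3% lower). The log2 fold change of the WT over the mutant line was 1.21 ± 0.181 for CDKN1A (adjusted p = 0.000445), 1.75 ± 0.323 for GDF15 (adjusted p = 0.00165), 0.82 ± 0.220 for GADD45A (adjusted p = 0.0135) and 1.71 ± 0.285 for GADD45B (adjusted p = 0.000864). All 4 GADD45B probe sets passed, the dim 213560_at with 2.24 ± 0.590 (adjusted p = 0.0124). Since 213560_at was above the filter only through the WT tetracycline group, its call is no further support. SESN2 did not pass, at 0.23 ± 0.178 (adjusted p = 0.352): with tetracycline it measured 11.01 ± 0.328 in WT arrays and 10.78 ± 0.213 in mutant arrays (SD, n = 3 each). SESN1 gave 0.36 ± 0.148 (adjusted p = 0.0817) and the brightest MDM2 probe set 0.067 ± 0.198 (adjusted p = 0.829). Without replicate 3 of the mutant tetracycline arrays 4 member probe sets were called, and without all replicate 3 arrays 3 were. Calls over all probe sets fell as well, from 8151 to 5689 and 2771. GADD45A was not called in either setting, at 0.72 (adjusted p = 0.059) and 0.54 (adjusted p = 0.218). It also did not pass without WT tetracycline replicate 2 (0.0565) or replicate 3 (0.0637).

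Signs of RNA quality moved with the line. The log2 ratio of 3′ to 5′ beta-actin control signal was 1.05 ± 0.265 for WT arrays and 0.259 ± 0.0262 for mutant arrays (SD, n = 6 each), with a 2-sided exact permutation p of 0.00216, the smallest these groups can give. The 18S control signal was 8.91 ± 0.501 for WT arrays and 7.67 ± 0.497 for mutant arrays (exact permutation p = 0.00216), while the GAPDH ratio gave an exact permutation p of 0.779. Within a line, tetracycline and untreated arrays gave exact permutation p between 0.5 and 0.8, where the smallest 3 against 3 can give is 0.1. The part of these signs in the comparisons of lines was not tested.

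Further genes of the p53 pathway were read as lists. Of 27 further p53 targets listed 25 had a tested probe set, and in the WT line 2 rose and 1 fell, with a median log2 fold change of 0.28 (-0.099 in the mutant line). PERP, a membrane protein of desmosomes, measured 13.67 ± 0.113 in WT tetracycline arrays and 13.16 ± 0.0225 in WT untreated arrays (SD, n = 3 each), a log2 fold change of 0.51 ± 0.0961 (adjusted p = 0.00299). DDB2, a DNA damage sensor, gave 0.62 ± 0.199 (adjusted p = 0.0448). CCNG1, cyclin G1, fell by 0.39 on the log2 scale (adjusted p = 0.039), and TIGAR, a regulator of glycolysis, gave 0.46 ± 0.158 and did not pass (adjusted p = 0.0595). With tetracycline in both lines, 11 of the 25 were higher in WT and 0 lower, where 13.3% of all genes were called higher and 14.9% lower in that comparison. Of these TNFRSF10B, a death receptor, gave 1.11 (adjusted p = 0.000315), FAS, another death receptor, 0.73 (adjusted p = 0.00424) and AEN, a nuclease of apoptosis, 0.77 (adjusted p = 0.0043). Their WT inductions did not pass, at 0.33, 0.32 and 0.32 in the order named (adjusted p = 0.166, 0.179 and 0.21). TNFRSF10B was already higher in the untreated WT line, by 0.53 (adjusted p = 0.036). For the difference of inductions 0 of the 25 were called.

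Of 18 listed regulators of p53 and members of its family, 15 were tested and 3 rose in the WT line, with a median of 0.16 (-0.05 in the mutant line). They were TP73, a p53 relative, at 1.09 ± 0.223 (adjusted p = 0.00475), MDM4, the partner of MDM2 that masks p53, at 0.70 ± 0.191 (adjusted p = 0.0224), and CREBBP, a p53 coactivator, at 0.64 ± 0.198 (adjusted p = 0.0381). CHEK1, a checkpoint kinase, gave 0.48 ± 0.173 and did not pass (adjusted p = 0.0718).

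Of 20 listed genes of the integrated stress response, 14 rose in the WT line and 0 fell, where 9.4% of all genes were called higher and 8.55% lower. The median was 0.87 (0.29 in the mutant line, where none was called). The list was written with earlier results of these data known, and it was not tested against the p53 lists. Whether these genes and the members rose by a shared cause was not tested. In the mutant line 19 of the 20 lay above 0 and 8 had an unadjusted limma p under 0.05, beside 1.79% of all genes, with log2 fold changes such as 0.81 ± 0.183 for CTH and 0.60 ± 0.128 for ASNS. DDIT3, the transcription factor CHOP, measured 11.09 ± 0.161 in WT tetracycline arrays and 9.03 ± 0.290 in WT untreated arrays (SD, n = 3 each), a log2 fold change of 2.06 ± 0.191. ATF3, a stress factor that ATF4 raises, gave 2.03 ± 0.178, CTH, an enzyme of cysteine synthesis, 1.60 ± 0.183, and ASNS, asparagine synthetase, 1.04 ± 0.128 (adjusted p = 0.000274 for ASNS and lower for the others). The difference between the lines passed for DDIT3 (1.81, adjusted p = 0.0329) and ATF3 (1.42, adjusted p = 0.0485). Neither passed without replicate 3 of the WT tetracycline arrays, without any 1 of the 6 mutant arrays or without all replicate 3 arrays, since 0 of all probe sets were then called for the difference.

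Among 13 tested relatives of the member families 3 rose and 0 fell, with a median of 0.53 (0.077 in the mutant line). BTG3 and BTG1, relatives of BTG2, gave 0.82 ± 0.150 (adjusted p = 0.00259) and 0.85 ± 0.272 (adjusted p = 0.0448), and CDKN2B, the kinase inhibitor p15, gave 0.62 ± 0.195 (adjusted p = 0.0405). GADD45G, the remaining gene of the GADD45 family, gave 0.92 ± 0.305 and did not pass (adjusted p = 0.0524).

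Of 15 tested partners and downstream genes of p21, 2 rose and 2 fell, with a median of 0.12 (-0.028 in the mutant line). CDK6, a G1 kinase, and CCND1, its cyclin D1 partner, fell by 0.81 (adjusted p = 0.00106) and fell by 0.90 (adjusted p = 0.00895) on the log2 scale. CCNE2, cyclin E2, rose by 0.49 (adjusted p = 0.0415) and MYBL2, a cell cycle transcription factor, by 0.48 (adjusted p = 0.0385). These lists were written with earlier results of the same data known, and their WT counts stand beside the 9.4% of genes called higher and 8.55% called lower above.

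**Figure D4:**
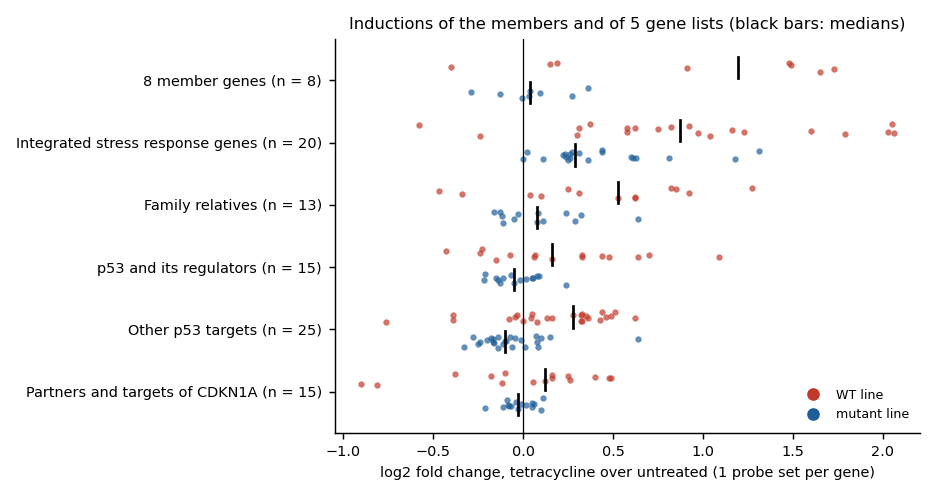
Log2 fold change with tetracycline over untreated (horizontal axis) for 8 member genes and 5 lists, 1 probe set per gene, with WT points in red, mutant points in blue and black bars for medians. The WT medians are 1.20 for the members, 0.87 for integrated stress response genes, 0.53 for family relatives, 0.16 for regulators, 0.28 for other p53 targets and 0.12 for partners of CDKN1A, while the mutant medians lie between -0.099 and 0.29.

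Markers of other cell types were mostly low. Of 6 fibroblast and endothelial markers 2 were above the filter, COL1A1 and PECAM1. COL1A1, a collagen gene, rose by 0.88 ± 0.196 in the WT line (adjusted p = 0.00748). PECAM1 gave a log2 fold change of -0.028 ± 0.529 there and did not pass (adjusted p = 0.978). The log2 of the markers' summed signal was 10.47 to 10.51 in WT tetracycline arrays and 9.44 to 9.95 in WT untreated arrays, and 9.64 to 10.09 in mutant tetracycline arrays and 9.68 to 9.85 in mutant untreated arrays. The brightest marker of this list, COL1A1, averaged 9.62 and weighs most in that sum. No marker of this list averaged 0, and the dimmest, CDH5 of endothelial cells, averaged 2.62. Whether the shift in summed signal has a part in the rise of the members was not tested. INA, a neuronal filament gene among the HEK markers, rose by 0.86 ± 0.173 in the WT line as well (adjusted p = 0.00425).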

How the data were processed

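Total RNA of 12 samples was measured on 1 array each. Per the submitters' processing notes, the deposited values are MAS5 signals, an intensity per probe set on a linear scale. The version of MAS5 is not given in the sources used here. After trimming 2% at each end, the mean was 500.1 on all 12 arrays, so the authors had scaled each array to a common mean. The number of arrays limits the precision, and 0 columns were left out.

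Signals under 1 were set to 1 (2211 values, 0.337%) and log2 was taken. The 62 AFFX controls were left out of the tests. Of the probe sets, 41091 had 1 gene symbol in the platform annotation, 1801 several and 11721 none. Of the listed genes, those without a probe set of 1 symbol are not analysed here. A linear model with 1 mean per group was fitted with limma 3.58.1 (R 4.3.3, eBayes with trend), and p-values were adjusted by Benjamini-Hochberg within each contrast, 2-sided. The fit was tested on simulated data. For the WT induction it recovered 40.3% of true log2 changes of 1.0 and 83.3% of those of 2.0. For the difference of inductions it recovered 7.46% and 51.5%. Of the simulated calls, 5 of 89 were false for the WT induction and 3 of 42 for the difference. A difference that did not pass is therefore not shown to be absent. Promoter windows were read from a RefSeq table of GRCh38.p14. Python 3.11.15 and matplotlib 3.10.9 made the figures.

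The named genes were all members with all their probe sets, up to 4 genes per list with the smallest p in the WT induction, and the 3 tested probe sets of other genes most like each of 5 members by Pearson r. DUSP1 and CHAC1 levels, the 3 death and apoptosis genes of the line comparison, COL1A1, PECAM1 and INA were given after their values were seen. The members and lists were chosen with earlier results of these data known. The alternatives were no filter, a filter at the 75th percentile (8.92), an offset of 16, quantile normalization, no trend, only the groups compared, a replicate block, array weights, the mean of all tested probe sets of a gene, and leaving out each array or all replicate 3 arrays. Replicate numbers were not treated as pairs. The correlation of same-numbered arrays' deviations was 0.0418 to 0.253 between the WT groups and 0.0258 to 0.21 between the mutant groups. Differently numbered arrays gave -0.291 to 0.113 and -0.172 to 0.0311. Same-numbered values within a line were thus all above 0, and these values do not settle whether the arrays are paired. The replicate block was run for that reason.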

Additional observations from a re-analysis of the deposited data

Results flagged for a closer look

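CDKN1A had inductions that differed between the lines by a test of the difference itself, at 1.45 on the log2 scale (limma adjusted p = 0.0485 over 29553 probe sets). The WT tetracycline arrays stood 1.24 to 1.77 above the WT untreated mean in 3 of 3 arrays, and the mutant tetracycline arrays -0.19 to 0.21 from the mutant untreated mean. The call was lost in 14 of 21 alternatives, with adjusted p between 0.00152 and 0.832 over all of them and a difference between 1.28 and 1.61. In some of the 14, 0 of all probe sets were called for the difference. These were the fits without all replicate 3 arrays, without WT tetracycline replicate 3 or without any single mutant array.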

How the results depend on the processing

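For the WT induction, 8 member probe sets were called, 7 to 9 over the other alternatives and 3 without the replicate 3 arrays of all groups. Over all tested probe sets the WT calls numbered 5005, and 541 to 8077 over the alternatives. The mutant induction had 0 member calls in every alternative run, and array weights called 4 of all probe sets. For the difference of inductions the count was 1, and became 0 with no filter, quantile normalization, no trend or without the replicate 3 arrays, 5 with array weights, and 0 to 5 when single arrays were left out (5 without replicate 1 of the WT tetracycline arrays). Over all probe sets its calls numbered 0 to 2702. For the untreated lines the count was 2. It became 1 with no filter, the stricter filter, quantile normalization, no trend or only the arrays compared. It was 0 without the replicate 3 arrays, and 0 to 3 when single arrays were left out. Over all probe sets 12.9% were called for the untreated lines, and 5.42% (no filter) to 20.1% (stricter filter) over the alternatives. For the lines with tetracycline the count was 7, and 3 without the replicate 3 arrays. It was 4 to 8 when single arrays were left out (4 without replicate 3 of the mutant tetracycline arrays). Over all probe sets 27.6% were called there, and 9.38% (without the replicate 3 arrays) to 39.6% (stricter filter) over the alternatives. The MDM2 WT induction of 0.19 turned to -0.047 with array weights and -0.023 without replicate 2 of the WT untreated arrays, with -0.023 to 0.41 over the arrays left out singly. With a replicate block the counts were 8, 0, 1, 2 and 7, as without it, and the block moved no brightest probe set of a member across the threshold (the listed genes were not examined under it). Over all probe sets it raised the calls for the difference to 76, against 41 without it. Why settings differ was not tested, apart from the smaller number of arrays where arrays were left out.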
